A study of Mus musculus with 6 samples.

Results

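The genes described here are 8 targets of the transcription factor p53: Cdkn1a, Trp53cor1, Pmaip1, Bbc3, Sesn2, Mdm2, Ccng1 and Trp53inp1. They are 8 of the 19342 gene names in a table of RNA-seq read counts from mouse mesoderm progenitor cells. They were chosen by their known place in the p53 pathway and with their counts in these libraries already seen, above all the ratio of BMP4 at 11 h over the untreated cells at 96 h. Every comparison here, and most of all those with either of those libraries, is therefore given as a description of genes chosen with their values known.

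All cells were C57BL/6 mesoderm progenitor cells, and the study asked how growth factors act on the specification of such cells from the embryo. The 6 conditions were untreated cells at 0 h, untreated cells at 96 h, recombinant human BMP4 with FGF8 for 5 h, BMP4 alone for 5 h, BMP4 with FGF4 for 11 h, and BMP4 alone for 11 h. BMP4, FGF8 and FGF4 are secreted signalling proteins. Treatment began after 96 h of culture, which puts its 5 h at 101 h and its 11 h at 107 h by the labels. The cultures stood in serum-containing medium on a feeder layer of mouse embryonic fibroblasts stopped from dividing with mitomycin C, so RNA of feeder cells may be present. Each condition had 1 library, and no library at 101 h or 107 h without factor was analysed here, so added factor and added time in culture cannot be told apart. There is no replicate check of any difference, and each interval below covers counting error only.

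p53 is held low in unstressed cells by the ubiquitin ligase MDM2, and it accumulates after DNA damage and other stresses. It then binds a DNA element made of a pair of half-sites and switches on genes that stop the cell cycle, start apoptosis, adjust metabolism and, through Mdm2 itself, bring p53 down again. In the early mouse embryo, loss of Mdm2 is lethal unless p53 is lost as well. Several of these targets are also switched on by other factors, among them ATF4 in the stress response, so their RNA alone does not measure p53.

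The promoters that hold the p53 half-site motif are shown because p53 binds DNA through pairs of it. The 8 genes were not chosen by this motif. RefSeq windows on GRCm38.p6, from 250 bases before to 50 bases after a gene start, were matched by symbol for 5 of the 8 genes and gave 8 windows. Capitals mark half-sites, searched by the motif's name as the 10-base p53 half-site, which reads the same on both strands, so that 1 search covers both.
Cdkn1a, plus strand, chr17:29090729-29091028: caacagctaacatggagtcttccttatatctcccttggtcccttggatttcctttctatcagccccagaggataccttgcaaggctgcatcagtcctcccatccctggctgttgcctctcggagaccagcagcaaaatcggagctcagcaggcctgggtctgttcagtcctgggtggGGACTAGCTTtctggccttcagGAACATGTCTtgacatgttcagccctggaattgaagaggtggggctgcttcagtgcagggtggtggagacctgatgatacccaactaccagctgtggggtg
Mdm2, minus strand, chr10:117710709-117711008: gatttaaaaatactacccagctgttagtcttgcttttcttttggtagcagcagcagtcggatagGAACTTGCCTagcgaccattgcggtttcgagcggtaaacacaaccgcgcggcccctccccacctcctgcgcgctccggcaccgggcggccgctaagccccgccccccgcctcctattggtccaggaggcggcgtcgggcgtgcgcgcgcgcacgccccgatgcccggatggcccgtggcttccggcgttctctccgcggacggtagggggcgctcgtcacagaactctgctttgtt
Ccng1, minus strand, chr11:40755237-40755536: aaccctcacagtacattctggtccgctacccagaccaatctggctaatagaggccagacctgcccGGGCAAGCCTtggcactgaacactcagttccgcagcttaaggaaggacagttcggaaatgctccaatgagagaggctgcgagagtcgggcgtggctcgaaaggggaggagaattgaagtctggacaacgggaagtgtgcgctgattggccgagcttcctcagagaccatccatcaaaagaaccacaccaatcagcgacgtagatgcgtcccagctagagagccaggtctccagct
The Cdkn1a window holds 2 half-sites, starting 73 and 51 bases before the gene start, within the spacer of up to 13 bases allowed for a pair. The single matches start 186 bases before the start in Mdm2 and 185 bases in Ccng1. The other Cdkn1a window, the Sesn2 window and the 3 Bbc3 windows have no match. Of all 32851 windows, 2745 (8.36%) hold at least 1 half-site and 24 (0.0731%) hold a pair. Pmaip1, Trp53cor1 and Trp53inp1 had no window printed here.

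The 6 libraries held between 179196459 and 272743104 counts. The table gives more values than names in the 4 libraries with growth factor, so each of those columns was placed on the names in order, and all 8 genes fell on the same counts whichever untreated column guided the placement. For Bbc3, 3 of the 10 nearest names were placed in step with it for BMP4 at 5 h, and 7 of 10 in each other placed column. For the other genes all 10 were in step. Levels are in CPM, counts scaled to a common library size by TMM. A ratio is called where log2 of the ratio, with 0.5 CPM added to each level, is at least 1 in size (2-fold) and the exact 95% counting interval of the plain ratio excludes 1. Of 17204 genes placed in all libraries, 13983 reached 1 CPM in at least 1 library, and all 8 p53 targets did. The libraries labelled 5 h lay near 0 h rather than 96 h: for BMP4 at 5 h over 0 h, 0.458% of genes were called higher and 0.1% lower, and for BMP4 at 5 h over 96 h, 2.3% higher and 3.3% lower.

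**Figure D1:**
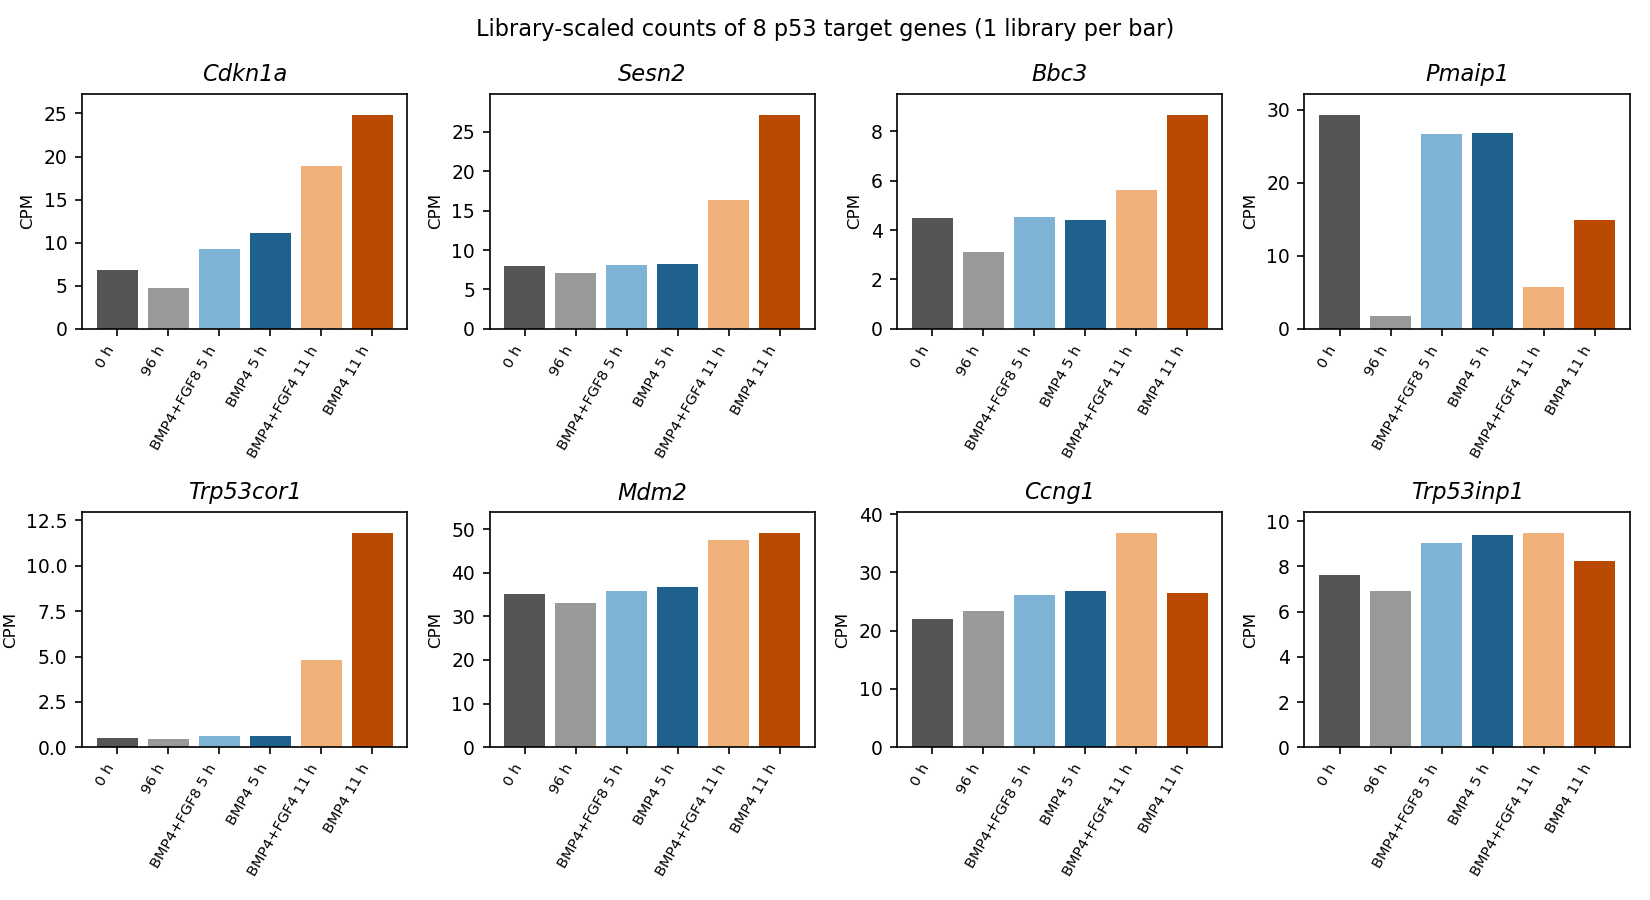
Level of each of the 8 p53 target genes in the 6 libraries, in TMM-scaled CPM on a linear axis from 0 that differs between panels, with 1 bar per library and no replicate. Cdkn1a, Sesn2, Bbc3 and Trp53cor1 are highest in BMP4 at 11 h, Pmaip1 is highest at 0 h, and Mdm2, Ccng1 and Trp53inp1 span at most 1.66-fold.

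The genes of cell cycle arrest lie side by side. Cdkn1a, which encodes the cyclin-dependent kinase inhibitor p21 (chromosome 17, 29090976 to 29100727, plus strand), and Trp53cor1, the long noncoding RNA lincRNA-p21 (chromosome 17, 29057430 to 29079179, minus strand), are read away from each other from starts 11797 bases apart. Cdkn1a had 6.85 CPM at 0 h, 4.76 at 96 h, 9.26 with BMP4 and FGF8 for 5 h, 11.2 with BMP4 for 5 h, 18.9 with BMP4 and FGF4 for 11 h and 24.8 with BMP4 for 11 h. No neighbouring pair in that order of levels had a counting interval that included equality. Trp53cor1 had 0.524 CPM at 0 h, 0.456 at 96 h, 0.613 with BMP4 and FGF8 for 5 h, 0.619 with BMP4 for 5 h, 4.82 with BMP4 and FGF4 for 11 h and 11.8 with BMP4 for 11 h. It was thus low in 4 libraries, where it had 114 to 137 counts and neighbours in level did not differ beyond counting error, and high in both 11 h libraries, with 1030 and 1978 counts. Its range of 25.9-fold was the widest of the 8, against 5.21-fold for Cdkn1a. Both genes overlap an annotated transcript on the opposite strand, and the strand setting of the counting is not given in the sources used here, so reads of the overlapping transcripts may be included.

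Both pro-apoptotic genes encode BH3-only proteins that block BCL2-type survival proteins, and their profiles were unlike. Bbc3, encoding PUMA (chromosome 7, 16308393 to 16318205), had 4.50 CPM at 0 h, 3.09 at 96 h, 4.54 with BMP4 and FGF8 for 5 h, 4.41 with BMP4 for 5 h, 5.61 with BMP4 and FGF4 for 11 h and 8.66 with BMP4 for 11 h. The 0 h library and both 5 h libraries did not differ in Bbc3 beyond counting error. Pmaip1, encoding NOXA (chromosome 18, 66458533 to 66465565), had 29.3 CPM at 0 h, 1.70 at 96 h, 26.8 with BMP4 and FGF8 for 5 h, 26.9 with BMP4 for 5 h, 5.76 with BMP4 and FGF4 for 11 h and 14.9 with BMP4 for 11 h. Pmaip1 was therefore high in fresh cells and at 5 h, lowest at 96 h, and intermediate at 11 h, which no other gene of the 8 showed.

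Sesn2 encodes sestrin 2, which restrains the growth regulator mTORC1 under stress (chromosome 4, 132492032 to 132510501). It had 7.95 CPM at 0 h, 7.09 at 96 h, 8.15 with BMP4 and FGF8 for 5 h, 8.25 with BMP4 for 5 h, 16.4 with BMP4 and FGF4 for 11 h and 27.2 with BMP4 for 11 h. Both 11 h libraries stood above the other 4, which lay within 1.16-fold of each other at most. Part of Sesn2 overlaps another annotated gene on the same strand.

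The feedback genes and Trp53inp1 varied least. Mdm2, the ligase gene that closes the p53 loop (chromosome 10, 117688875 to 117710758), had 35.0 CPM at 0 h, 33.1 at 96 h, 35.8 with BMP4 and FGF8 for 5 h, 36.6 with BMP4 for 5 h, 47.5 with BMP4 and FGF4 for 11 h and 49.0 with BMP4 for 11 h. Ccng1, encoding cyclin G1, which recruits phosphatase 2A to MDM2 (chromosome 11, 40748552 to 40755311), ran from 22.0 CPM at 0 h to 36.7 CPM with BMP4 and FGF4 at 11 h. Trp53inp1, encoding a nuclear protein that promotes p53 activity and autophagy (chromosome 4, 11156431 to 11174379), ran from 6.90 CPM at 96 h to 9.46 CPM with BMP4 and FGF4 at 11 h. Per kilobase of exon, Mdm2 and Ccng1 were at 6.52 to 9.64 and 6.28 to 10.4 CPM per kb and Trp53inp1 at 1.07 to 1.46, while Trp53cor1 reached 3.16 at its highest and Pmaip1 10.7. On the same scale Sesn2 was at 2.04 to 7.82, Cdkn1a at 1.34 to 6.99 and Bbc3 at 1.46 to 4.08, so with BMP4 at 11 h Sesn2 lay above Ccng1 (7.55).

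**Figure D2:**
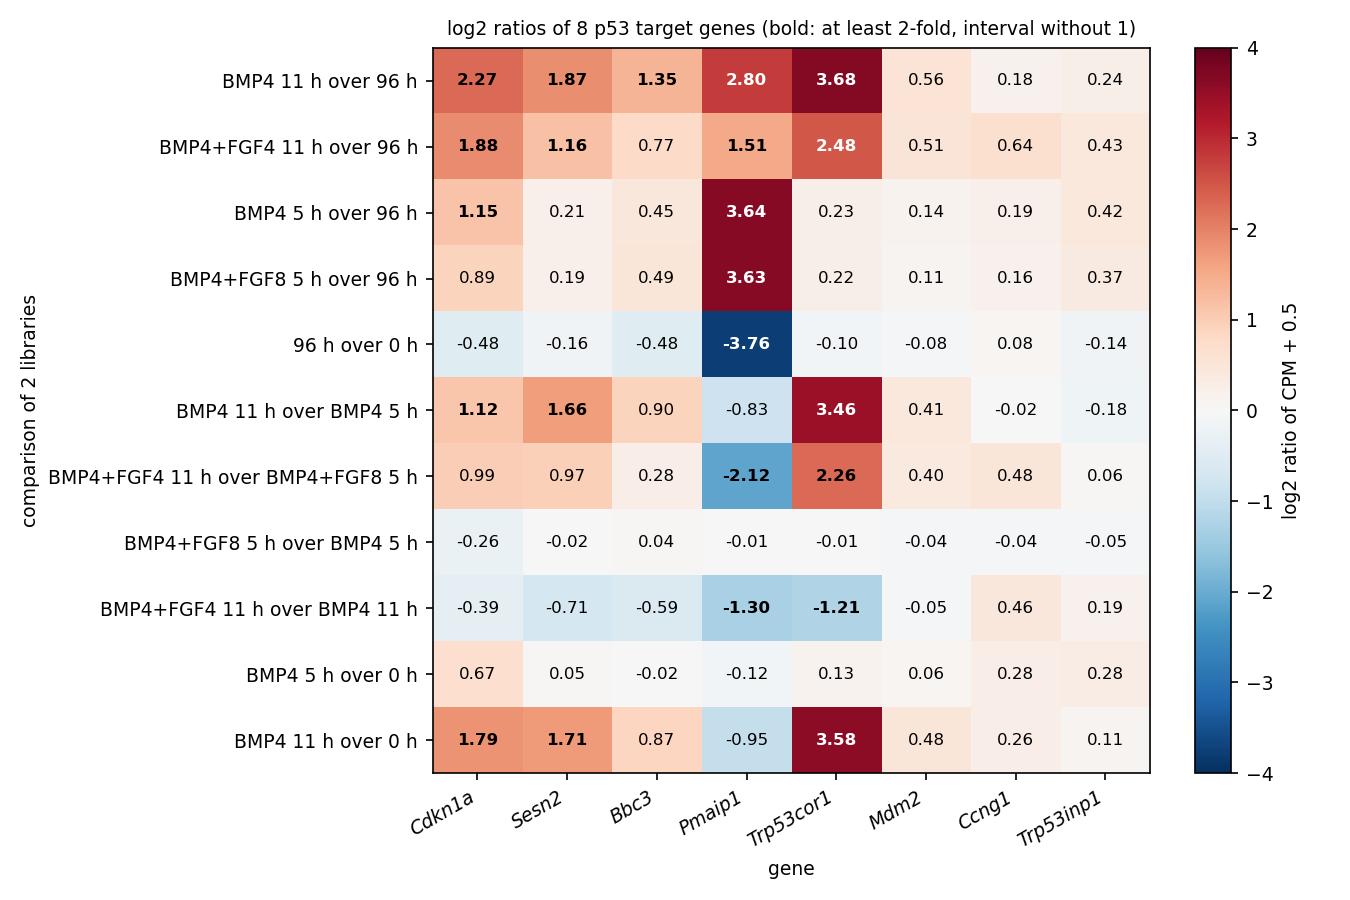
log2 ratio of CPM + 0.5 for each gene (columns) in 11 comparisons of 2 libraries (rows), coloured from blue (lower) to red (higher), with called values in bold. Trp53cor1, Sesn2 and Cdkn1a are called higher for BMP4 at 11 h over 96 h, over 0 h and over BMP4 at 5 h, whereas Pmaip1 is called higher in the first of these 3 only.

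For BMP4 at 11 h over 96 h, the comparison behind the choice of genes, 5 of the 8 were called higher and 0 lower, against 2.56% of all genes higher and 0.3% lower, and nothing is read from that. Trp53cor1 was 25.9-fold higher (95% counting interval 21.6 to 31.3), Pmaip1 8.74-fold (7.91 to 9.68), Cdkn1a 5.21-fold (4.90 to 5.56), Sesn2 3.84-fold (3.63 to 4.05) and Bbc3 2.80-fold (2.57 to 3.05). The log2 ratios of Mdm2, Trp53inp1 and Ccng1 were 0.56, 0.24 and 0.18. Nearest to the 2-fold line among the genes called was Bbc3, at 8.66 CPM with BMP4 and 3.09 CPM at 96 h, and among those not called Mdm2, at 49.0 CPM with BMP4 and 33.1 CPM at 96 h.

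For BMP4 with FGF4 at 11 h over 96 h, 4 were called higher and 0 lower, against 1.5% of genes higher and 0.129% lower. The log2 ratios were 2.48 for Trp53cor1, 1.88 for Cdkn1a, 1.51 for Pmaip1 and 1.16 for Sesn2, while Bbc3 at 0.77, Ccng1 at 0.64, Mdm2 at 0.51 and Trp53inp1 at 0.43 were not called. The 96 h library is shared with the preceding comparison, so the likeness of the values is in part that of their common denominator.

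At 5 h the picture was another one. For BMP4 at 5 h over 96 h, 2 genes were called higher and 0 lower, against 2.3% of genes higher and 3.3% lower. They were Pmaip1 at 15.8-fold (14.3 to 17.4) and Cdkn1a at 2.34-fold (2.19 to 2.51). The other 6 had log2 ratios of at most 0.45. The Cdkn1a call is lost when 2 CPM is added to each level (log2 ratio 0.96). With BMP4 and FGF8 at 5 h over 96 h, Pmaip1 alone was called, at 15.7-fold higher, and Cdkn1a had 9.26 CPM with BMP4 and FGF8 and 4.76 CPM at 96 h, a log2 ratio of 0.89. In that comparison 2.47% of genes were called higher and 3.18% lower. For BMP4 at 5 h over 0 h, 0 of the 8 were called. Of all genes, 0.458% were called higher and 0.1% lower there, so nothing is read from that count. Pmaip1 was at a log2 ratio of -0.12 and Cdkn1a at 0.67. The higher Pmaip1 at 5 h is thus set against a 96 h value that lay below that of fresh cells.

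Culture for 96 h without factor separated Pmaip1 from the other 7. It fell to 1.70 CPM at 96 h, against 29.3 CPM at 0 h, a log2 ratio of -3.76 and a plain ratio of 0.0581 (0.0527 to 0.0639). It was the 1 gene of 8 called lower, with 0 called higher, against 2.32% of genes lower and 3.9% higher. Cdkn1a and Bbc3 were each at -0.48, and the remaining 5 lay between -0.16 and 0.08.

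A pair of comparisons that share no library set 11 h against 5 h. They were BMP4 at 11 h over BMP4 at 5 h, and BMP4 with FGF4 at 11 h over BMP4 with FGF8 at 5 h. The companion factor changes between the times in the FGF pair, FGF4 at 11 h and FGF8 at 5 h. Cell markers changed too. Summed red blood cell markers had 20.8 CPM at 5 h and 2941 at 11 h with BMP4 alone, and 109 and 1996 in the FGF pair. Tailbud and presomitic markers had 327 and 154 CPM, and 458 and 39.4. As the 5 h libraries lay near 0 h, added hours of treatment and a difference between cultures cannot be told apart here. With BMP4 alone, 3 genes were called higher and 0 lower, against 2.64% of genes higher and 0.372% lower. They were Trp53cor1 at 19.0-fold (16 to 22.8), Sesn2 at 3.30-fold (3.12 to 3.48) and Cdkn1a at 2.23-fold (2.12 to 2.34). Bbc3 had 8.66 CPM at 11 h and 4.41 CPM at 5 h, a log2 ratio of 0.90, and Pmaip1 had 14.9 CPM at 11 h and 26.9 CPM at 5 h, a log2 ratio of -0.83. The FGF pair uses neither library of the main choice, but its counts too had been seen when the genes were chosen, so it is no independent check. In the FGF pair, Trp53cor1 was called higher at 7.86-fold (6.57 to 9.47) and Pmaip1 lower at a ratio of 0.215 (0.202 to 0.229). There, 4.81% of genes were called higher and 1.84% lower, so that 1 of 8 in each direction is a count of single genes. Cdkn1a and Sesn2 lay on the line in the FGF pair, with plain ratios of 2.04 (1.94 to 2.15) and 2.01 (1.90 to 2.13) and log2 ratios of 0.99 and 0.97 after the 0.5 CPM is added. Both are called with 0.1 CPM added or with scaling by total counts. Mdm2 was at 0.41 with BMP4 alone and 0.40 in the FGF pair.

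**Figure D3:**
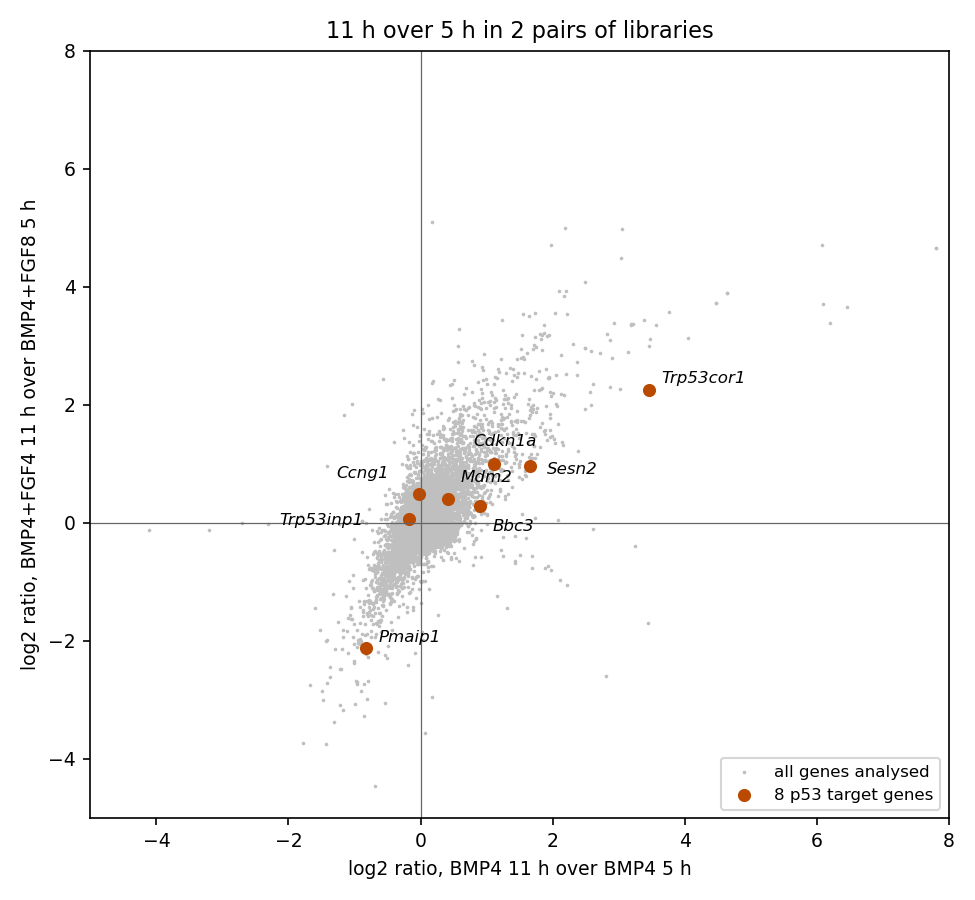
log2 ratio of 11 h over 5 h with BMP4 alone (horizontal) and with BMP4 and an FGF (vertical), for the 13983 genes analysed (grey, 2 of them beyond the axes) and the 8 p53 target genes (orange). Trp53cor1 is at 3.46 and 2.26, Sesn2 at 1.66 and 0.97, Cdkn1a at 1.12 and 0.99, and Pmaip1 at -0.83 and -2.12. The libraries labelled 5 h lay near 0 h rather than 96 h.

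The added FGF was compared at matched times. FGF8 with BMP4 over BMP4 alone at 5 h gave 0 called genes of 8, against 0.193% of all genes higher and 0.0715% lower. Cdkn1a had 9.26 CPM with FGF8 and 11.2 CPM without, a ratio of 0.830 (0.782 to 0.880), and the other 7 intervals all included equality. FGF4 with BMP4 over BMP4 alone at 11 h gave 2 genes called lower and 0 higher, against 0.658% of genes lower and 1.34% higher. Pmaip1 had 5.76 CPM with FGF4 and 14.9 CPM without, a ratio of 0.387 (0.361 to 0.414). Trp53cor1 had 4.82 CPM with FGF4 and 11.8 CPM without, a ratio of 0.409 (0.379 to 0.441). Sesn2, Bbc3 and Cdkn1a had log2 ratios of -0.71, -0.59 and -0.39, whereas Ccng1 was at 0.46. The genes had been chosen for high values in the BMP4 library at 11 h, which is the denominator here. Cell markers also differed between the 2 libraries at 11 h. Summed tailbud and presomitic markers had 39.4 CPM with FGF4 and 154 without, and fibroblast markers 1143 and 429. The part of cell types in these ratios was not tested. Scaling by total counts shifts the median log2 ratio of all genes in this comparison by 0.14 and changes the split of calls to 246 higher and 72 lower, against 187 higher and 92 lower.

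Over 0 h, BMP4 at 11 h gave 3 genes called higher and 0 lower, against 3.55% of genes higher and 0.486% lower. Trp53cor1 was at a log2 ratio of 3.58, Cdkn1a at 1.79 and Sesn2 at 1.71. Bbc3 was at 0.87 and Pmaip1 at -0.95, so of the 5 genes called over 96 h these did not pass against fresh cells. With total-count scaling Pmaip1 is called lower in this comparison (-1.03).

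The wider p53 programme was followed in 49 other targets listed by role, of which 43 were analysed. For BMP4 at 11 h over 96 h, their median log2 ratio was 0.10, against -0.02 over all genes. In that comparison 4 were called higher and 0 lower, beside 2.56% of all genes higher and 0.3% lower. They were the antiproliferative gene Btg2 (26.5 CPM with BMP4 at 11 h and 11.4 at 96 h), the mTORC1 inhibitor gene Ddit4 (27.7 and 9.43), the death receptor gene Eda2r (6.26 and 2.83) and the noncoding RNA gene Neat1 (2.72 and 0.44). Btg2 and Ddit4 had 36.7 and 25.7 CPM at 0 h and so, like Pmaip1, were called lower at 96 h over 0 h, together with the arrest gene Rprm. Neat1 had between 1.49 and 3.65 CPM in the 4 libraries with factor and was below 0.5 CPM in both untreated libraries. By role, the number called higher was 1 of 10 arrest and growth genes, 1 of 13 apoptosis genes, 0 of 4 feedback genes, 1 of 14 metabolism and repair genes and 1 of 2 noncoding genes. Single calls in lists this small do not allow a reading by role. Among targets often used as read-outs of p53, named after their values were seen, Bax had 34.4 CPM with BMP4 at 11 h and 31.6 at 96 h, Zmat3 had 23.3 and 21.0, Aen had 51.4 and 45.4, and Phlda3 had 6.56 and 4.90, with log2 ratios from 0.12 for Bax to 0.39 for Phlda3. Of the 39 not called, the growth arrest gene Gadd45a had the highest log2 ratio, 0.90, and Polh the lowest, -0.41. Gadd45a had 14.6 CPM with BMP4 at 11 h and 7.57 at 96 h. Of the 43 genes, 25 had a log2 ratio above 0.

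Other comparisons called other numbers of the 43 genes. For BMP4 with FGF8 at 5 h over 96 h and for BMP4 at 5 h over 96 h, which share the 96 h library, the same 4 were called higher, Btg2, Ddit4, Neat1 and Rprm, and 0 lower, beside 2.47% and 2.3% of all genes higher. For BMP4 with FGF4 at 11 h over 96 h, 2 were called higher, Eda2r and Neat1, with a median of -0.004, beside 1.5% of all genes higher. For BMP4 at 11 h over BMP4 at 5 h, 0 were called in either direction, with a median of 0.01. Of all genes, 2.64% were called higher and 0.372% lower there. The 8 genes were chosen for high values with BMP4 at 11 h, so their calls are not set against these 43. In the FGF pair 1 was higher, Neat1, and 3 lower, Btg2, Rprm and the arrest gene Sfn, with a median of -0.09. Of all genes, 4.81% were called higher and 1.84% lower in that pair.

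**Figure D4:**
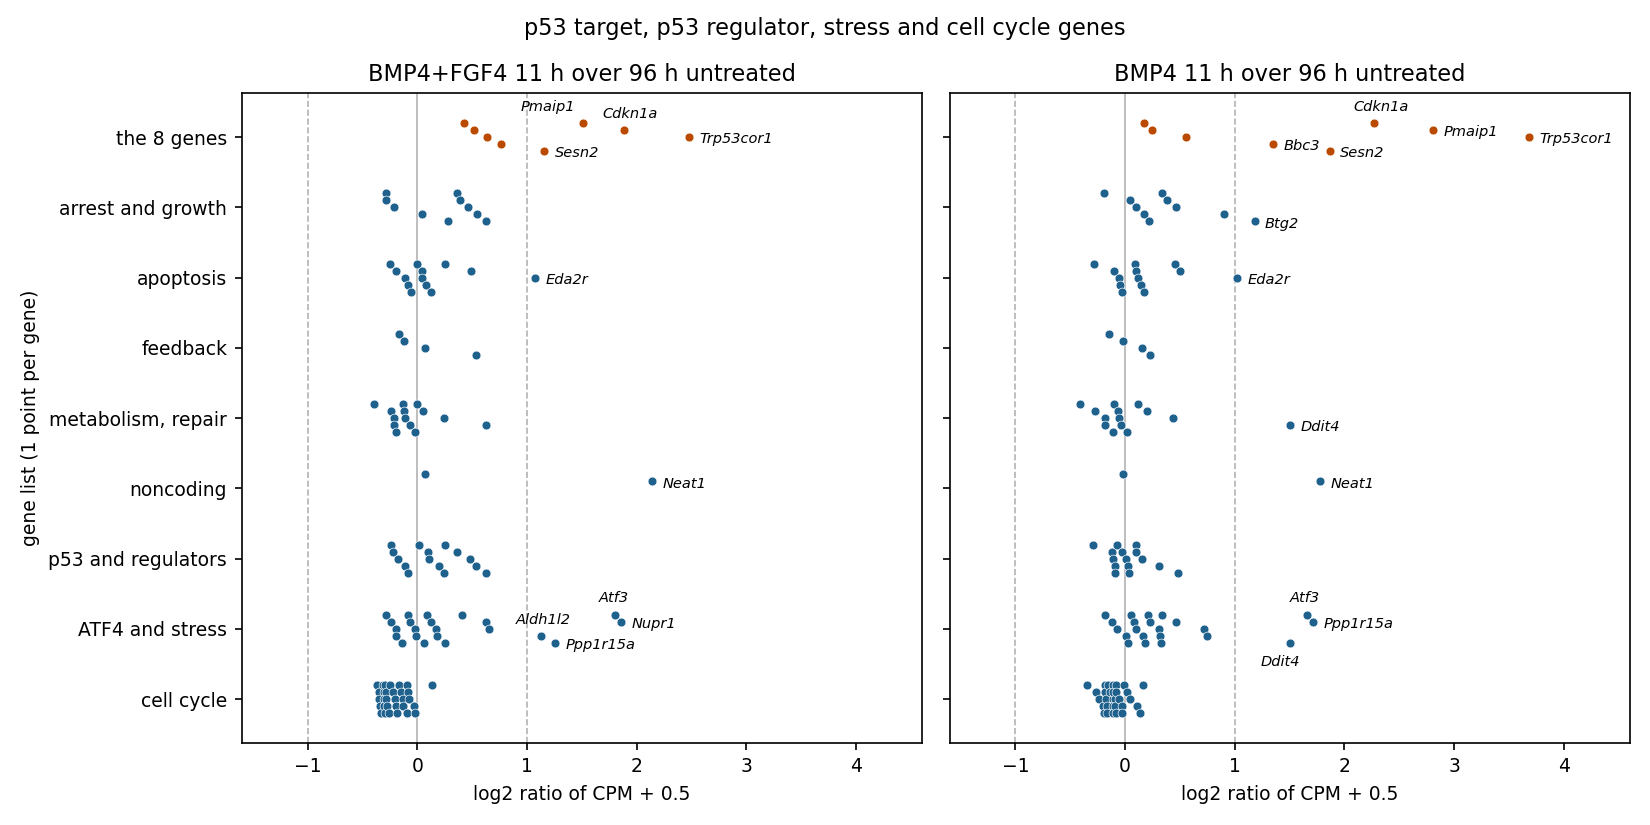
log2 ratios at 11 h over 96 h with BMP4 and FGF4 (left) and with BMP4 alone (right), 1 point per gene analysed, for the 8 genes (orange) and for lists of other p53 targets by role, p53 regulators, stress and cell cycle genes (blue). Dashed lines mark 2-fold, and genes at or past it are named; most of the 43 other p53 targets lie between the lines.

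In the list of p53 and its regulators, no RNA passed the call. That list leaves out Cdkn2a, the gene of p16 and p19ARF, which was called and is given with the CDK inhibitors below. Trp53, the p53 gene, had 97.3 CPM at 0 h, 91.1 at 96 h, 95.3 with BMP4 and FGF8 for 5 h, 97.2 with BMP4 for 5 h, 84.2 with BMP4 and FGF4 for 11 h and 97.9 with BMP4 for 11 h. Mdm4, whose product restrains p53 beside MDM2, had 49.1 CPM with BMP4 and FGF4 at 11 h, 37.5 with BMP4 at 11 h and 33.7 at 96 h. The kinase gene Hipk2, named after its values were seen, had 30.6 CPM with BMP4 and FGF4 at 11 h and 17.1 with BMP4 and FGF8 at 5 h, a log2 ratio of 0.82. Of the 15 listed genes, among them the damage kinases Atm, Atr, Chek1 and Chek2, 0 were called in any of the 11 comparisons. Across these, 0.0715% to 4.81% of all genes were called in a given direction, so nothing is read from 0 of 15. p53 is regulated mainly as a protein, which RNA counts do not measure.

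Because Sesn2 is a target of ATF4 as well, the ATF4 and stress response list was read beside it. Of 23 genes analysed, 4 were called higher for BMP4 at 11 h over 96 h (median 0.23): Sesn2, Ddit4, the stress transcription factor gene Atf3 (17.0 CPM with BMP4 and 5.04 at 96 h) and Ppp1r15a (64.3 and 19.3), which encodes GADD34, the subunit that lets translation resume after stress. Log2 ratios of the genes not called, named after their values were seen, ran from -0.18 for Xbp1 to 0.74 for Nupr1, with Asns at 0.08 and Ddit3 at 0.23. Trib3, a pseudokinase gene induced in the stress response, was called higher at 96 h over 0 h, with 2.57 CPM at 96 h and 0.285 at 0 h, as was Atf3. Of 14 BCL2 family genes, Bbc3 and Pmaip1 were the 2 called for BMP4 at 11 h over 96 h. Both had been chosen for this ratio, as had Sesn2 above and Cdkn1a below, so their calls in these lists follow from the choice. Of all genes, 2.56% were called higher in that comparison. Of 7 CDK inhibitor genes, Cdkn1a and Cdkn2a were called, and Cdkn2a, which encodes p16 and p19ARF, was scarce, at 0.632 CPM with BMP4 at 11 h and 0.037 at 96 h, and passed the filter of 1 CPM only through BMP4 with FGF4 at 11 h. Of 31 cell cycle genes analysed, 0 were called in any comparison, beside 0.0715% to 4.81% of all genes in a given direction. The median log2 ratio of the 31 was -0.11 for BMP4 at 11 h over 96 h and -0.25 for BMP4 with FGF4 at 11 h over 96 h.

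The genes nearest in profile were found by the root mean square difference of log2(CPM + 0.5), centred on each gene's mean over the 6 libraries, among genes averaging at least 5 CPM. With 6 points, and libraries that share time and treatment, this is a description only. Cdkn1a was nearest to Maff (0.160), Pmepa1, Nr4a1, Sesn2 (0.310) and Junb, and Sesn2 to Sgk1 (0.199), Maff, Il12rb2, Hivep2 and Nr4a2. Maff, Nr4a1, Nr4a2 and Junb encode transcription factors. Trp53cor1 had no close match, and its nearest were Klf4 (0.520), Fosl2, Ppp1r15a, Csrnp1 and Ctgf. Pmaip1 was nearest to Pcdh19 (0.194), Dll3, Adamtsl2, Rspo3 and T, of which Dll3 and T, encoding a Notch ligand and Brachyury, are tailbud and presomitic genes. Bbc3 was nearest to Tob1 (0.057) and Skil, and then to Vmn1r104 and Vmn1r152, whose values were the same in every library, and Vmn1r100, whose values were close to theirs, so that counts of these receptor genes may be shared and are uncertain. The nearest genes of Mdm2, Ccng1 and Trp53inp1 were Dnajb9 (0.028), Cdc42bpg (0.046) and Rad51b (0.040), followed for Mdm2 by Crnde, Slc35d1, Ebf4 and Irs2, for Ccng1 by Ptprm, Plxdc2, Brsk2 and Fndc3b, and for Trp53inp1 by Cpt1c, Mcoln1, Dip2c and Map6. Among the 8 themselves, Ccng1 and Trp53inp1 were closest (0.157) and Pmaip1 and Trp53cor1 farthest apart (2.08).

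**Figure D5:**
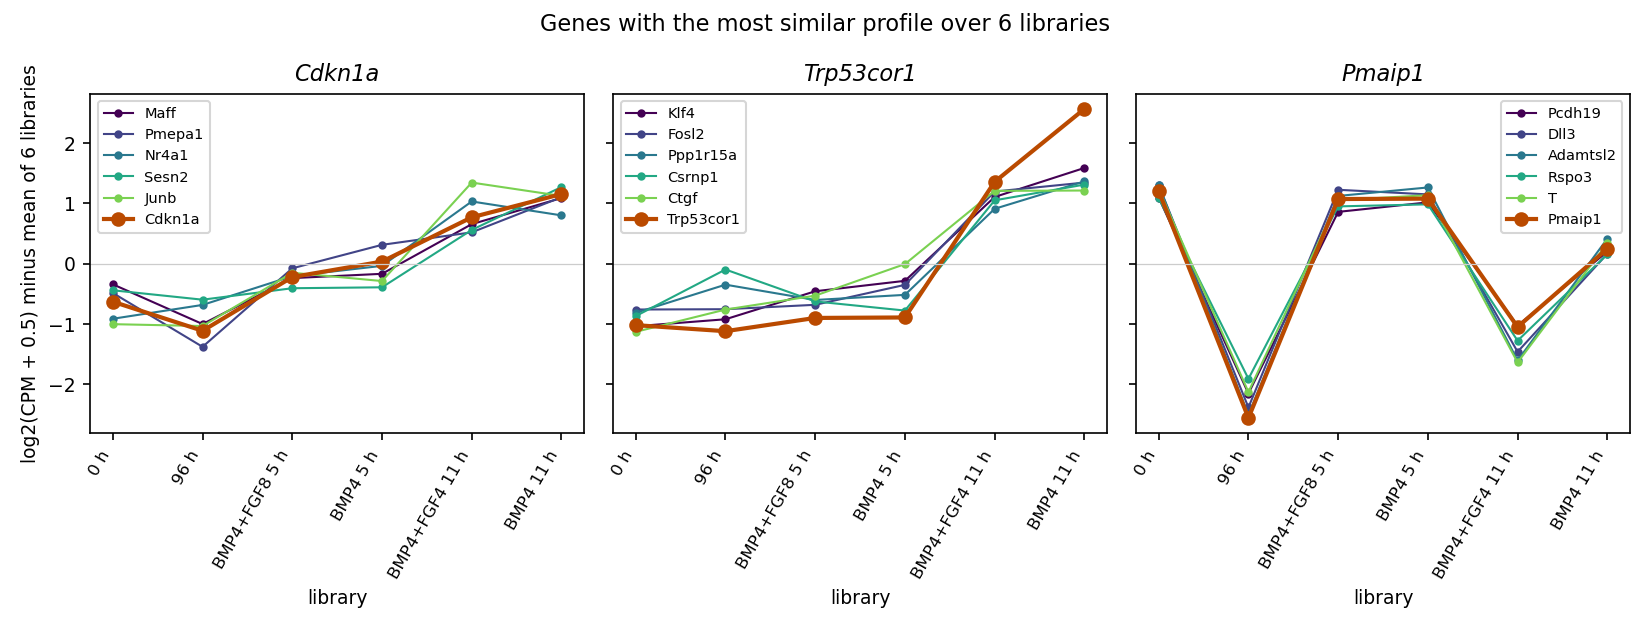
Profiles over the 6 libraries, as log2(CPM + 0.5) minus the gene's own mean, for Cdkn1a, Trp53cor1 and Pmaip1 (thick orange) and the 5 genes nearest to each (thin). Cdkn1a and Trp53cor1 are highest at 11 h, and Trp53cor1 departs from its nearest gene Klf4 by 0.520 (root mean square), while Pmaip1 and its nearest genes are lowest at 96 h.

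Cell type markers moved between the same libraries, and in bulk RNA fewer cells of a type and less RNA per cell cannot be told apart. The summed level of 9 of 10 tailbud and presomitic mesoderm markers was 368 CPM at 0 h, 22.8 at 96 h, 458 with BMP4 and FGF8 for 5 h, 327 with BMP4 for 5 h, 39.4 with BMP4 and FGF4 for 11 h and 154 with BMP4 for 11 h. The 3 libraries with the lowest sums were also the lowest for Pmaip1, in the same order. Markers of the labelled cell type were thus far lower at 96 h than at 0 h. For 8 fibroblast markers, which the feeder layer also expresses, the sums in the same order of libraries were 98.3, 739, 158, 183, 1143 and 429 CPM. The list did not move as one. With BMP4 and FGF8 at 5 h over 96 h, Thy1 and Fbln2 were called higher and 6 others lower, and with BMP4 at 5 h over 96 h the same 2 were higher and 5 others lower. Thy1 had 2.98 CPM with BMP4 and FGF8 at 5 h, 3.38 with BMP4 at 5 h, 7.43 with BMP4 and FGF4 at 11 h, 3.11 with BMP4 at 11 h, 0.422 at 96 h and 0.662 at 0 h, so that, like Neat1 and Cdkn2a, it was higher in the 4 libraries with factor than in the untreated ones and highest with FGF4. For 10 of 11 red blood cell markers they were 15.6, 3118, 109, 20.8, 1996 and 2941 CPM, and for 7 endothelial markers 8.11, 104, 8.31, 7.59, 138 and 48.8 CPM. Heart muscle markers ran from 9.25 to 105 CPM and 4 of 5 macrophage markers from 1.77 to 5.70 CPM over the libraries. At 0 counts stood 1 red blood cell marker with BMP4 at 5 h, and 1 macrophage marker at 0 h and with BMP4 at 5 h. The part of these cell types in the levels of the p53 targets was not tested.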

How the data were processed

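Per the labels' protocols, a kit that keeps strand made the 6 total RNA libraries. The deposited values are raw counts per gene, not normalized by the authors. HTSeq, STAR 2.4.0e, cutadapt, DESeq and mm10 are named, with no role, in the submitters' processing notes, and no source used here gives the counting settings. Of counts from 1 to 20, 65.4% to 70.9% were even, so fragments may have been counted by both reads and intervals may be too narrow. Untreated columns held 19342 values, 1 per name, and the others 19415 to 19826. Those were placed on the names, sorted without regard to case, by a pair hidden Markov model that keeps their order. Genes placed with a posterior of at least 0.99 in all 4 columns were kept (99.3% of counts). Placement and calls were tested on simulated data. Scaling was TMM (edgeR 4.0.16, R 4.3.3), over placed genes. With 1 library per condition no test was run and no p-value exists; ratios carry Clopper-Pearson 95% intervals, for counting error only. Alternatives were total-count and DESeq2 (1.42.0) scaling, 2 or 0.1 CPM added, a filter of 5 CPM or none, a 1.5-fold call, placement on 1 untreated column, and halved counts, the last added after seeing the data. The members and lists were chosen with earlier results of these data known. Named from the lists were genes called for BMP4 at 11 h over 96 h or for 96 h over 0 h, at most 6 per list, besides Trp53 and Mdm4, and the 5 nearest profiles per gene without predicted symbols. Of the 49 other p53 targets, 45 were placed in all libraries and 43 passed the filter of 1 CPM. Gene positions are from GENCODE M21 on GRCm38.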

Additional observations from a re-analysis of the deposited data

How the results depend on the processing

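Over 10 alternative settings the 88 ratios of the 8 genes gave 880 values, of which 0 reversed a called direction. For BMP4 at 11 h over 96 h and for 96 h over 0 h, the counts of 5 and 1 called genes were the same under all 10 settings. The most movable count was that of BMP4 with FGF4 at 11 h over BMP4 with FGF8 at 5 h. It was 2 and became 4 with total-count scaling, 4 with 0.1 CPM added and 4 with a 1.5-fold call, since Cdkn1a and Sesn2 lie on the line. With DESeq2 size factors Cdkn1a alone joined (log2 ratio 1.00). The count for BMP4 at 5 h over 96 h was 2 and became 1 with 2 CPM added. A 1.5-fold call, which is looser by construction, also gave 2 in place of 1 for BMP4 with FGF8 at 5 h over 96 h, 5 in place of 3 for BMP4 at 11 h over BMP4 at 5 h, 6 in place of 4 for BMP4 with FGF4 at 11 h over 96 h, 4 in place of 2 for BMP4 with FGF4 over BMP4 at 11 h, 1 in place of 0 for BMP4 at 5 h over 0 h, and 5 in place of 3 for BMP4 at 11 h over 0 h. Total-count scaling moved the median of all genes by over 0.1 in 1 of the 11 comparisons, BMP4 with FGF4 over BMP4 at 11 h (0.14). The counts over all genes depend more on the settings: for BMP4 at 11 h over 96 h, 358 higher and 42 lower became 173 and 16 with 2 CPM added, 212 and 28 with a filter of 5 CPM, and 852 and 283 with a 1.5-fold call. Of 22 such counts, 21 moved by over 1.5 times with 2 CPM added, 17 with the filter of 5 CPM, 22 with the 1.5-fold call, 3 with 0.1 CPM added and 1 with placement on either untreated column alone. No paired analysis was possible because each condition had 1 library. Trp53cor1, with 114 to 137 counts in 4 libraries, is the gene whose ratios depth limits most.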

Other observations

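Cdkn2a, the gene of the p16 and p19ARF proteins, had 102 to 292 counts in the 4 libraries with growth factor and 10 and 12 counts in the 2 untreated libraries. Its level was 1.37 CPM with BMP4 and FGF4 at 11 h, 0.632 with BMP4 at 11 h, 0.590 with BMP4 and FGF8 at 5 h, 0.464 with BMP4 at 5 h, 0.037 at 96 h and 0.0552 at 0 h. Its neighbour gene Cdkn2b, also a CDK inhibitor and named after its values were seen, had 1.03 CPM with BMP4 and FGF4 at 11 h and 0.111 CPM at 96 h. Cdkn2a passed the filter of 1 CPM only through BMP4 with FGF4 at 11 h. Thy1, 1 of the 8 fibroblast markers, was also higher in the libraries with factor, at 2.98 to 7.43 CPM, than in the untreated ones, at 0.422 and 0.662 CPM. Most of that list went another way. With BMP4 at 5 h over 96 h, 5 fibroblast markers were called lower and 2, Thy1 and Fbln2, higher. The summed level of the 8 was 183 CPM with BMP4 at 5 h and 739 CPM at 96 h. The cultures stood on fibroblast feeders, and the part of fibroblasts in the Cdkn2a counts was not tested.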
